A study of Mus musculus with 2 samples.

Results

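The cyclin-dependent kinase (Cdk) inhibitors of the mouse were followed across 2 sorted hair follicle populations. The genes were Cdkn1a, Cdkn1b, Cdkn1c, Cdkn2a, Cdkn2b, Cdkn2c and Cdkn2d, and every probe set annotated with 1 of these symbols alone was taken, which gave 9 probe sets for 7 genes out of 45101 probe sets and 18193 genes on the array. All cells came from back skin of CD-1 pups at postnatal day 4 with the genotype K14-RFP/Sox9-EGFP, in which the red protein marks keratin 14 promoter activity and the green protein marks Sox9. The early bulge group was sorted as bright green and bright red, and the non-bulge outer root sheath (ORS) group as green-negative and bright red, so both groups carried the same 2 reporters and no other treatment. The sources used here do not state how many pups went into each sort. Each group was hybridised to 1 Affymetrix array, so no value below has a replicate, an SD or a p-value, and each difference compares these 2 arrays only. Sox9 followed the green gate, with a signal of 4061 in early bulge and 676 in ORS, although its probe sets ranged from 0.30 to 2.59 in log2 ratio. Krt14 was bright in both sorts, with 14706 and 6609, but 2.23-fold higher in early bulge. Its 3 probe sets ranged from 1.15 to 2.43 in log2 ratio.

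Cdk inhibitors are small proteins that bind cyclin-Cdk complexes and hold cells back from dividing. The Cip/Kip family (Cdkn1a, encoding p21, Cdkn1b, encoding p27, and Cdkn1c, encoding p57) acts mainly on Cdk2 complexes, and the Ink4 family (Cdkn2a to Cdkn2d, encoding p16, p15, p18 and p19) acts on Cdk4 and Cdk6. In the hair follicle, bulge stem cells divide rarely, while cells at the base of the growing follicle divide quickly, and p21, p27 and p57 are all known in skin as brakes on keratinocyte division.

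Among the 7 inhibitors, Cdkn1a had a 3.70-fold higher signal in early bulge and Cdkn1c a 2.16-fold higher signal in ORS. A further 4 differed by less than 2-fold, and Cdkn2a lay below the floor on both arrays. This makes 1 inhibitor past 2-fold in each direction. The floor is a signal of 57.8, the 40th percentile of all signals of both arrays, below which values were not ordered, and a gene was measured where at least 1 array reached it. Among all 13252 measured genes, 12.1% were at least 2-fold apart, 7.30% being higher in early bulge and 4.78% higher in ORS. The 6 measured inhibitors had a median log2 ratio (early bulge over ORS) of -0.15, against 0.04 over all measured genes. The signal was higher on each array for 3 inhibitors, and of all measured genes 53% were higher in early bulge and 47% in ORS. With the arrays centred on their median signal in place of the deposited scaling, the median over all measured genes was -0.17 and that of the inhibitors -0.36. In that setting 1 inhibitor, Cdkn1a, was higher in early bulge and 5 in ORS, against 37.3% and 62.7% of all measured genes. Also, 40.9% of all genes at least 2-fold apart were higher in early bulge, in place of 60.4%.

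**Figure D1:**
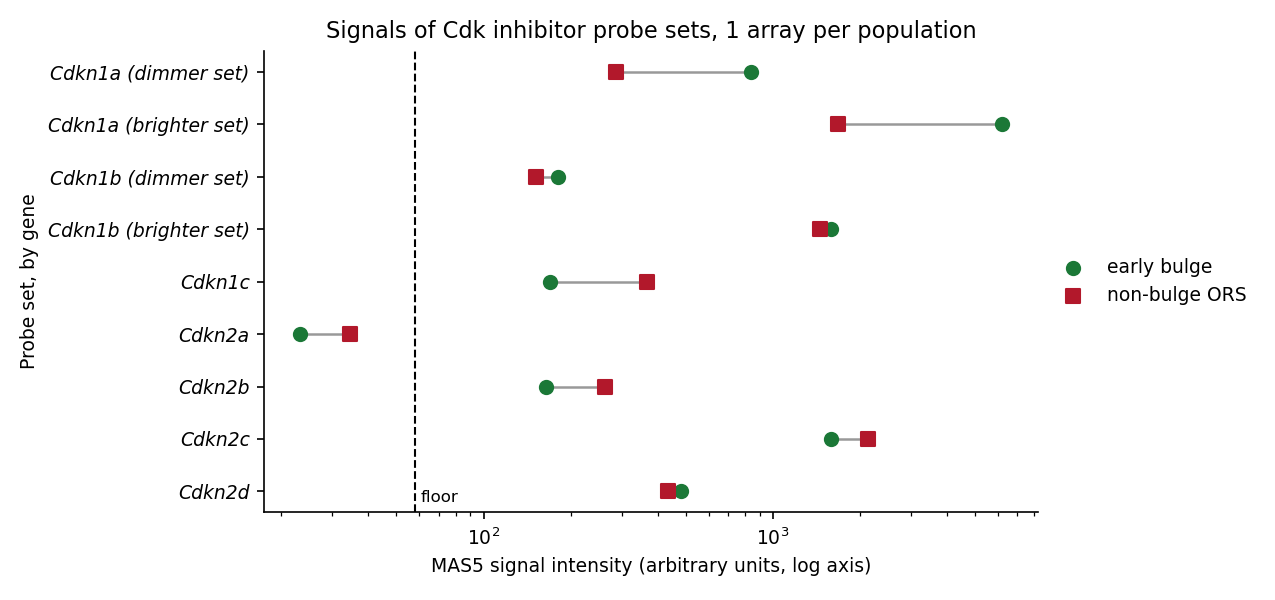
Signals of the 9 probe sets (rows) in early bulge (green circles) and ORS (red squares), in arbitrary units on a log axis, with the floor of 57.8 as a dashed line. Both Cdkn1a probe sets lie to the right on the early bulge array, Cdkn1c and Cdkn2b lie to the right on the ORS array, and both Cdkn2a values lie below the floor.

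Cdkn1a encodes p21, the inhibitor induced by p53 and by signals that push keratinocytes to leave the cell cycle. Its brighter probe set had a signal of 6214 in early bulge and 1678 in ORS, a log2 ratio of 1.89. Its second probe set, much dimmer, had signals of 837 and 287, which is 2.92-fold higher in early bulge, with a log2 ratio of 1.55. Both sets of probes therefore gave the same direction and a size above 2-fold. They differed from each other by 0.34 on the log2 scale, less than the SD of 0.58 of such differences over 18642 pairs of measured probe sets of 1 gene. That SD describes probes on these arrays and not animals or sorts. Only 279 of 13252 measured genes had a ratio further towards early bulge. The signal of the brighter set was above that of 97.6% of all probe sets in early bulge and of 89.7% in ORS, so neither value was near the floor. Under the other processing settings its log2 ratio lay between 1.67 and 1.95. In sorted bulk samples, more cells with Cdkn1a RNA and more of that RNA per cell cannot be told apart.

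RefSeq (GRCm38.p6) annotates 2 start sites for Cdkn1a, and the 250 bases before each are shown because Cdkn1a had the largest difference of the family and is a classical target of p53. The first window is chr17:29090729-29090978 and the second chr17:29093519-29093768, both on the plus strand. Capitals mark matches on either strand to the p53 consensus, to the GC box GGGCGG, which Sp1 and Klf proteins bind, and to TATAA.
Cdkn1a upstream start: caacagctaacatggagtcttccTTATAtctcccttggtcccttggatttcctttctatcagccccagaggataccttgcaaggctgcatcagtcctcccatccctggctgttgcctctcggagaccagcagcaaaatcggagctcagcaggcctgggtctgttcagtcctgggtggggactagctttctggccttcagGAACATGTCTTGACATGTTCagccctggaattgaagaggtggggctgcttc
Cdkn1a downstream start: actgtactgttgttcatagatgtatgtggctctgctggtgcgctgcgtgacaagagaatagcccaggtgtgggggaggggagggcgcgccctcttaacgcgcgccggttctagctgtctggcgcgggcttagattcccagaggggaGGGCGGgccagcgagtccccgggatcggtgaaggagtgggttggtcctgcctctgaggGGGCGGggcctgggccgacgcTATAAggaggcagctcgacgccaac
The p53 consensus was taken as its 20-base form of both half-sites without a spacer, with the core C and G of each half-site required and at most 1 other mismatch. The upstream window holds 1 match, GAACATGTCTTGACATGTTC, with 1 mismatch, ending 31 bases before the start. Such a match was found in 19 of 32851 windows of this length in the table, which is 0.058%. The downstream window holds none, but has 2 GC boxes and, 20 bases before the start, the letters TATAA. A GC box was found in 32.7% of all windows and TATAA in 22.8%. No marked match overlaps another in these 2 windows. The deposited values do not separate transcripts by start site, and these matches are letters in a window and not measured binding.

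For the other inhibitors 7 windows of 250 bases were in the same table. Cdkn1b had 1 GC box and Cdkn2d had 3. Of the 2 windows each of Cdkn2a and Cdkn2c, 1 window held GC boxes, 2 in Cdkn2a and 3 in Cdkn2c, and the other held none. Cdkn2b had no GC box. None of these 7 windows had a p53 match or TATAA as defined above. Cdkn1c was not in the table.

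Cdkn1b encodes p27, which accumulates in resting cells and is removed by the ubiquitin ligase Skp2 when they enter the cycle. Its signals were 1585 in early bulge and 1452 in ORS, a log2 ratio of 0.13. A dimmer probe set gave 181 and 152, a log2 ratio of 0.26. Both arrays thus had almost the same Cdkn1b signal, and 79.7% of measured genes were at least as far from a ratio of 1. Median centring turned the sign of the log2 ratio to -0.09, so no direction is given for this gene.

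Cdkn1c encodes p57, an imprinted inhibitor expressed from the maternal allele and known for its part in leaving the cell cycle during development. Its only probe set had a signal of 170 in early bulge and 368 in ORS, a log2 ratio of -1.11. It was higher in ORS under all 9 other settings, with log2 ratios from -1.33 to -0.90. Of these, lower floors and another choice of probe sets could not change the ratio of a single probe set above the floor. With the floor added to every signal as a pseudocount the ratio was the -0.90, which is less than 2-fold, and then no inhibitor was 2-fold higher in ORS. The signal was 2.94 times the floor on the early bulge array, so the value rests on a dim probe set. In all, 520 measured genes had a ratio further towards ORS.

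Cdkn2b encodes p15, a target of TGF-beta signalling. Its signals were 164 in early bulge and 263 in ORS, a log2 ratio of -0.68. Cdkn2c encodes p18, and its signals were 1588 and 2123, a log2 ratio of -0.42. Both were higher in ORS by less than 2-fold, and this direction held under all 9 other settings, in which Cdkn2b ranged from -0.90 to -0.53 and Cdkn2c from -0.64 to -0.35. Each has 1 probe set above the floor, so lower floors and another choice of probe sets could not change its ratio. Ratios at least as far from 1 were held by 23.9% of measured genes in the case of Cdkn2b and by 43.5% in that of Cdkn2c, so neither was unusual for these arrays.

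Cdkn2d encodes the Ink4 protein p19, which is not the p19 of the Arf reading frame. Its signals were 482 in early bulge and 433 in ORS, a log2 ratio of 0.16 that turned to -0.06 under median centring. Cdkn2a encodes both p16 and Arf, which share exons, and the deposited annotation does not say which transcripts its probe set covers. Its signals were 23.1 and 34.7, below the floor on both arrays, so no ratio is given. With the floor at the 20th percentile it was measured, with a log2 ratio of -0.58. Cdkn2a was the only inhibitor that could not be measured on either array. Thus 3 of the 4 Ink4 genes were measured and none was 2-fold apart, while 2 of the 3 Cip/Kip genes were, in opposite directions. Whether the 2 families differ was not tested.

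**Figure D2:**
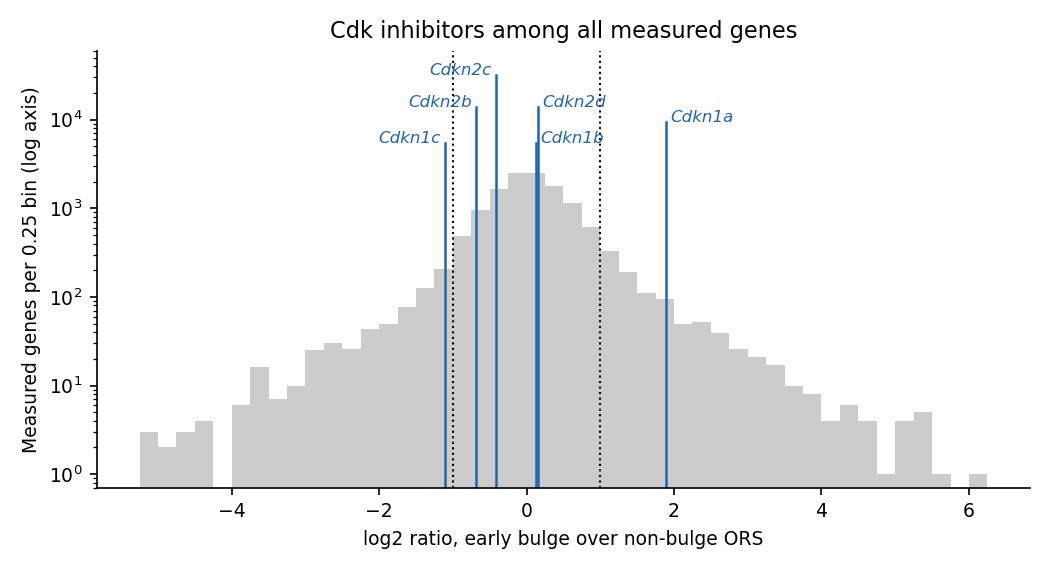
Number of measured genes (log axis) by log2 ratio, early bulge over ORS, in bins of 0.25, with the 6 measured inhibitors as blue lines and 2-fold as dotted lines. Cdkn1a at 1.89 lies in the right tail, Cdkn1c at -1.11 just past 2-fold on the left, and the other 4 lie inside the main body.

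**Figure D3:**
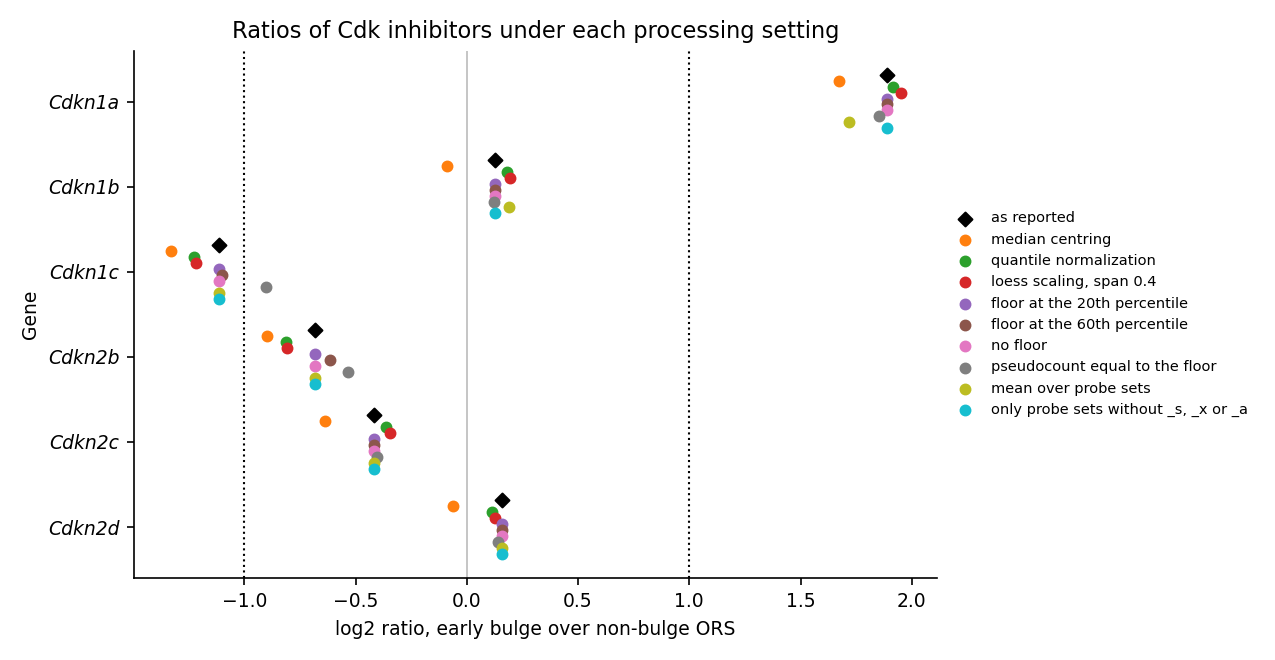
Log2 ratio of each measured inhibitor as reported (black diamonds) and under 9 other processing settings (coloured points), with 2-fold as dotted lines. Cdkn1a stays between 1.67 and 1.95, Cdkn1c passes inside 2-fold only with a pseudocount, and Cdkn1b and Cdkn2d change sign only under median centring.

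Genes next to the inhibitors on the chromosome, picked by position after the values were seen, did not all follow them. Srsf3, the coding gene before Cdkn1a in the RefSeq order, had signals of 9316 and 9917 (log2 ratio -0.09), and Rab44, the one after it, had 119 in early bulge and 47.1, below the floor, in ORS. Both coding neighbours of Cdkn1c, Kcnq1 and the imprinted Slc22a18, were below the floor on both arrays by their brightest probe set. Mtap, a metabolic enzyme gene beside Cdkn2a, had signals of 2495 in early bulge and 5473 in ORS. It was 2.19-fold higher in ORS, the direction of its near neighbour Cdkn2b. Its 4 measured probe sets ranged from -1.75 to -1.13 on the log2 scale. Beside Cdkn1b, Gpr19 and Apold1 had log2 ratios of -0.04 and 0.31. Faf1 beside Cdkn2c had -0.31, and Kri1 and Ap1m2 beside Cdkn2d had -0.46 and -0.57. Other probe sets of Gpr19 and Kri1 gave 0.45 and 0.34. Dmrta1 beside Cdkn2b and 4930522H14Rik beside Cdkn2c were below the floor on both arrays. Across the 2 arrays, the measured genes with the log2 ratio nearest to that of Cdkn1a were Abca1 (1.89), Cyp2b10 (1.89) and Pdlim2 (1.88). Nearest to Cdkn1c were Prodh (-1.11), Rad51c (-1.11) and 3110082I17Rik (-1.11). With 2 arrays a match in ratio is a coincidence of 1 number and is given as a description.

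None of 8 D cyclins, Cdk4/6 and pocket protein genes was 2-fold apart, against 12.1% of all measured genes. Their median log2 ratio was -0.17, with 3 higher in early bulge and 5 in ORS, against 53% and 47%. Cyclin D1, Ccnd1, which drives Cdk4 and Cdk6, had signals of 3216 and 4178, and Ccnd3 had 656 and 508. With the mean over probe sets in place of the brightest, Ccnd3 was at least 2-fold higher in early bulge, the only gene of this list to pass 2-fold in any setting. The 3 measured probe sets of Ccnd3 ranged only from 0.08 to 0.37 in log2 ratio, and that mean also took in probe sets below the floor. Rbl1, a relative of the retinoblastoma protein, and Cdk6 had log2 ratios of -0.35 and -0.33. Cyclins E, A and B, Cdk1, Cdk2 and their regulators had a median of -0.40. Of these genes 12 of 14 were higher in ORS, against 47% of all measured genes. The regulators were activators and also Wee1 (-0.23) and Pkmyt1 (-0.08), kinases that hold Cdks back. Only Cdc25c, a phosphatase that activates Cdk1, was 2-fold apart, with 486 in early bulge and 1138 in ORS. Cyclin genes Ccne2 (-0.99), Ccnb2 (-0.97) and Ccne1 (-0.94) were just inside 2-fold. With median centring 4 genes of this list passed 2-fold, against 13.1% of all measured genes.

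E2F factors, some of which act downstream of the inhibitors once the retinoblastoma protein is phosphorylated, had a median log2 ratio of -0.33 over 10 genes. None was 2-fold apart, and 7 were higher in ORS, against 47% of all measured genes. Among the 7 were the E2F partner Tfdp1 (-0.67), E2f3 (-0.57), E2f7 (-0.57) and E2f8 (-0.52). The other measured probe set of E2f3 gave 0.25. Of 22 DNA replication genes, 21 were higher in ORS and 3 of them by 2-fold, with a median of -0.79. The median of 22 mitotic genes was -0.81, all being higher in ORS and 5 of them by 2-fold. Of all measured genes 47% were higher in ORS, and 4.78% by at least 2-fold. Cdc6, which loads the replicative helicase, had signals of 675 and 1692, and Rfc4 and Mcm10 had log2 ratios of -1.22 and -1.15. The other measured probe set of Mcm10 gave -0.03. Among mitotic genes the kinase Nek2 had 1451 in early bulge and 3663 in ORS, though another of its probe sets gave a log2 ratio of 0.08. With median centring, 11 replication and 13 mitotic genes passed 2-fold in ORS, and the medians were -1.0 and -1.02. Of all measured genes 62.7% were then higher in ORS, and 7.71% by at least 2-fold. The counts were 1 and 3 when probe sets of suffix _s, _x or _a were left out, and 2 and 3 with the mean over probe sets. Quantile and loess scaling each gave 5 and 5. Over these settings, 4.17% (mean over probe sets) to 5.53% (loess) of all measured genes were 2-fold higher in ORS.

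**Figure D4:**
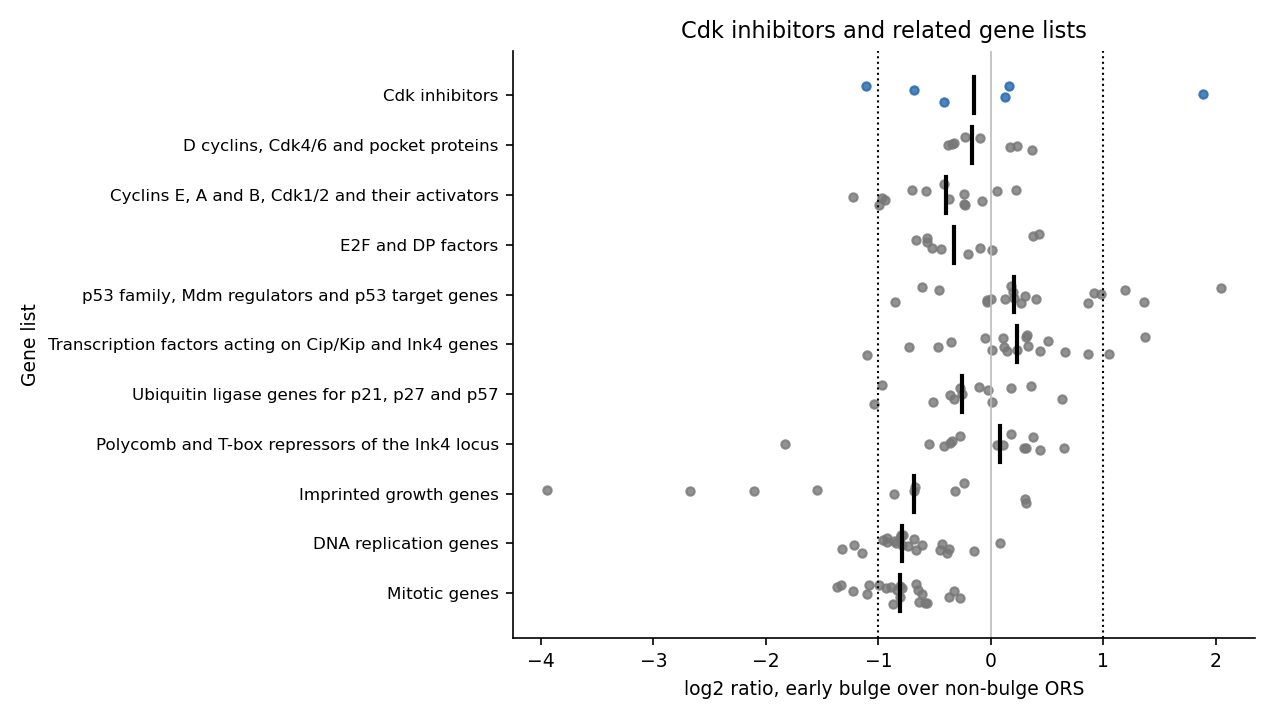
Log2 ratio, early bulge over ORS, of each measured gene of the inhibitor family (blue) and of 10 related lists (grey), with list medians as black bars and 2-fold as dotted lines. Replication and mitotic genes have medians of -0.79 and -0.81, and the inhibitors spread to both sides of 0.

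Genes of the p53 pathway went both ways. Of 19 measured genes, 14 were higher in early bulge, against 53% of all measured genes, and 5 in ORS. At least 2-fold apart were 3 of the former, against 7.30% of all measured genes in that direction, and the median log2 ratio was 0.20. With median centring 9 were higher in early bulge, against 37.3% of all genes, and 10 in ORS, 2 and 1 of them by at least 2-fold, and the median was -0.01. With the mean over probe sets, which also took in those below the floor, 5 were at least 2-fold higher in early bulge. Among these was Plk2, named after its values were seen, whose only measured probe set had a log2 ratio of 0.87. Trp73, a p53 relative, had signals of 1114 and 270, and its other probe set gave a log2 ratio of 1.30. Btg2, an antiproliferative p53 target, had 8691 and 3387. Plk3, a stress-responsive kinase, had 606 and 265, and Phlda3, an inhibitor of Akt signalling, had 470 and 238. Btg2 and Plk3 are also known as immediate early genes. The other 15 measured genes of the list lay between a log2 ratio of -0.85 for Gadd45a and 0.92 for Sesn1, the ends of this range being named after their values were seen. Trp53 itself and Bax had no probe set with their symbol alone and were not analysed here.

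Among 19 transcription factors known to act on Cip/Kip and Ink4 genes, 2 were at least 2-fold higher in early bulge and 1 in ORS (median log2 ratio 0.23, or 0.02 with median centring). Of all measured genes 7.30% were at least 2-fold higher in early bulge and 4.78% in ORS. At any size, 14 of the 19 were higher in early bulge, against 53% of all measured genes. With median centring 10 were, against 37.3%. Cebpa, which can bind and stabilise p21, had signals of 1703 and 658, and Cebpb had 3151 and 1523. Klf4, an activator of Cdkn1a, had 15266 and 8379, a log2 ratio of 0.87, and its other probe set gave 1.99. Id3, which holds back differentiation and can repress Cdkn1a through E proteins, was lower in early bulge, with 3566 against 7634. With median centring 1 gene of this list, in place of 2, was 2-fold higher in early bulge.

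Of 13 genes for breakdown of the inhibitor proteins, 9 were higher in ORS, against 47% of all measured genes, with a median log2 ratio of -0.25. Dtl, the receptor of the ligase that removes p21 in S phase, had signals of 1615 in early bulge and 3328 in ORS, the only 2-fold difference of the list. Its 6 probe sets ranged from -1.38 to -0.41, and under quantile scaling, loess scaling or the mean over probe sets no gene of this list was 2-fold higher in ORS. Skp2, the receptor for p27, had 1488 and 2905, a log2 ratio of -0.97, but its 5 probe sets reached -0.05. Fbxl12 (0.64) and Cul1 (-0.51) differed less. RNA levels say nothing on the amount of inhibitor protein, which was not measured.

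Repressors of the Ink4 locus, listed with Kdm6b, which acts against Polycomb, showed no common direction. Of 14 measured genes 8 were higher in early bulge and 6 in ORS, against 53% and 47% of all measured genes. The median was 0.08. With median centring 5 were higher in early bulge and 9 in ORS, against 37.3% and 62.7% of all measured genes. The median was then -0.14. The Polycomb gene Phc1 had signals of 130 and 463, 3.55-fold higher in ORS, from a single probe set. Cbx7 (0.65), Ezh2 (-0.55) and the histone demethylase Kdm6b (0.44) were less than 2-fold apart. Both T-box repressors, Tbx2 and Tbx3, were below the floor on both arrays.

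Of 11 measured imprinted growth genes, 9 were higher in ORS, against 47% of all measured genes. By at least 2-fold 4 of these were, against 4.78% of all measured genes. The median log2 ratio of the list was -0.69. Meg3, an imprinted long RNA, had signals of 176 and 2719, but its 8 measured probe sets reached from -3.95 to 0.52. Grb10, an adaptor that damps insulin signalling, had 134 and 860, and the growth factor Igf2 had 178 and 764. Ndn, a growth suppressor, had 584 and 1700, and all 5 of its probe sets were at -1.46 or lower. With the mean over probe sets in place of the brightest, 1 gene of the list was 2-fold higher in ORS in place of 4. Without probe sets of suffix _s, _x or _a the median was -0.13.

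Markers of several other cell types were higher on the same array as 1 of the 2 inhibitors that were 2-fold apart. Not all marker lists were, as none of 6 melanocyte markers was 2-fold apart. All 7 dermal fibroblast markers were at least 2-fold higher in ORS, where Cdkn1c was higher, and their summed signal was 4257 in early bulge and 52237 in ORS. Of these, Pdgfra was below the floor in early bulge and none was below it in ORS. The 5 hair matrix markers (1871 and 7095 summed) and the 5 inner root sheath markers (7289 and 20720) were also higher in ORS, 3 of each by at least 2-fold. On the side of Cdkn1a, all 6 upper follicle markers were at least 2-fold higher in early bulge (38322 and 4951 summed), with Gata6 and Defb6 below the floor in ORS. Of 6 sebocyte markers, 4 were at least 2-fold higher in early bulge (17512 and 6334), with Pparg and Cidea below the floor in ORS. Of 5 measured markers of suprabasal epidermis, 4 were (20253 and 4400 summed over all 6, Flg being below the floor on both arrays). The part of these cell types in the Cdkn1a and Cdkn1c ratios was not tested.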

How the data were processed

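RNA of 2 sorted populations was measured on 1 array each. Per the submitters' processing notes, the authors used MAS5 and Affymetrix Expression Console, and the deposited values are linear signal intensities. The mean after trimming 2% from each end was 500.003 on both arrays, so both had been scaled alike. MAS5 subtracts mismatch signals, and low values are noisy. Precision is limited by having 1 array per group. Detection calls were not used here.

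Gene symbols came from the platform annotation, where 34958 probe sets had 1 symbol, 932 had several and 9160 besides controls had none. All 234 member and list genes with a probe set carried the RefSeq symbol of their Entrez ID. Of 233 list genes 227 matched. The brightest probe set by mean log2 signal represented a gene, and signals under the 40th percentile of non-control signals were raised to it. Ratios, counts at 2-fold and medians were computed in Python 3.11.15 (pandas 2.3.3, statsmodels 0.14.6 for loess), and the procedure was tested on simulated data. No test between groups was possible. By rule, named genes were the members, up to 4 genes of each related list and up to 3 of each marker list with the largest ratio, the gate genes and the 3 genes nearest in ratio. Chromosomal neighbours, genes below the floor and a few others marked in the text were named after their values were seen. The 10 related lists were D cyclins, other cyclins, E2F, p53, transcription factors, ubiquitin ligases, Polycomb and T-box, imprinted, replication and mitotic genes. A further 12 lists held cell type markers. Members and lists were chosen with earlier results of these data known. Alternatives changed the scaling, the floor or the choice of probe sets. The mean over probe sets averaged the log2 signals of all probe sets of a gene, also those below the floor.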

Additional observations from a re-analysis of the deposited data

How the results depend on the processing

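Of 9 alternatives, none changed the count of 1 inhibitor at least 2-fold higher in early bulge. Other floors could not change the ratio of Cdkn1a, whose signals lay above each of them. The count at least 2-fold higher in ORS was 0 in place of 1 with a pseudocount equal to the floor, which by its construction shrinks ratios of dim genes. Over all related lists 21 genes were at least 2-fold apart, and 41 with median centring. Among all genes, 1602 were at least 2-fold apart, against 2854 and 1042 with floors at the 20th and 60th percentile and 4332 with no floor. No paired analysis was possible because each group has 1 array, and no array could be left out. Dim probe sets limit Cdkn1c, Cdkn2b and above all Cdkn2a.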

Other observations

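Marker lists of cells outside the follicle epithelium other than fibroblasts were mixed. All 6 pericyte and smooth muscle markers were higher in ORS, 4 of them by at least 2-fold (summed signals 3545 in early bulge and 18440 in ORS), while none of 6 melanocyte markers was 2-fold apart (2351 and 2157). Of 6 immune markers 4 were below the floor on both arrays, and of 5 endothelial markers 3 were. Among the latter Tek had signals of 70.0 and 286. The 6 basal keratinocyte markers were all higher in early bulge, 3 of them by at least 2-fold (75364 and 40663 summed). Of 7 bulge markers, 4 were higher in early bulge, 3 of them by at least 2-fold, and 3 were higher in ORS. Foxc1 had signals of 3443 in early bulge and 90.6 in ORS, and Nfatc1 had 2864 and 88.9. Cd34, a surface protein of adult bulge cells, was 9.75-fold higher in ORS, with signals of 61.8 and 603. This rests on 1 measured probe set, whose early bulge signal was near the floor of 57.8. Lhx2 and Lgr5, named after their values were seen, had log2 ratios of -0.03 and -0.11.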
